A study of Mus musculus with 12 samples.

Results

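Core circadian clock genes were followed in intestinal stem cells (ISCs), the dividing cells at the base of the crypt that renew the gut epithelium. The members were the 10 gene symbols *Arntl*, *Clock*, *Npas2*, *Per1*, *Per2*, *Per3*, *Cry1*, *Cry2*, *Nr1d1* and *Nr1d2*, chosen by name. All 10 of 10 were found among the 47729 genes of the count table, and 10 of 10 passed the filter on low counts in every comparison. RNA was sequenced in 12 libraries of ISCs from the small intestine, sorted as EpCAM+ CD24- cells with the brightest EGFP and without CD31, CD45 and TER119. All mice carried *Lgr5-EGFP-IRES-CreERT2*, which places EGFP and a tamoxifen-dependent Cre under the control of the stem cell gene *Lgr5*, so the sort takes the cells in which this gene is most active. There were 4 groups of 3 libraries each. Ctrl mice were not restrained and, in the restraint protocol of the study, controls went without food and water for as long as the restrained mice. Stress mice (labelled CRS, with restraint stress as the treatment) were restrained on 1 day. The chronic restraint protocol of the study gives 3 h per day in a tube. Vehicle mice received an intraperitoneal injection of the cyclodextrin solution, and CORT mice received corticosterone, the main glucocorticoid of the mouse, at 5 mg/kg by the same route. The libraries are numbered 1, 2 and 3 in Ctrl, 1+2, 3 and 4+5+6 in stress, 3, 5 and 6 in vehicle and 2, 4 and 5 in CORT, and the joined stress numbers read as pools of several mice. Mice of both sexes aged 8 to 10 weeks were used, and collection alternated between treatments. In the restraint protocol the hour varied between morning and afternoon. The daily injection protocol of the study also varied the time of day. Neither sex nor hour of collection is given for each library, and the main text gives no interval from exposure to collection.

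The circadian clock is a loop of transcription and repression that runs in almost every cell. ARNTL (BMAL1) pairs with CLOCK or its relative NPAS2 and binds E-box motifs in the promoters of the *Per* and *Cry* genes, whose proteins then enter the nucleus and repress the pair. In a linked loop, the repressors NR1D1 and NR1D2 (REV-ERB) and the activators of the ROR family compete for RORE motifs, through which *Arntl* and *Npas2* are controlled. In the gut the clock times cell division, absorption and barrier functions, and glucocorticoids are among the signals that set clocks outside the brain. Since the level of most of these transcripts depends on the time of day, the hour of collection matters to every comparison here, and its part in the results was not tested.

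Total counts were between 16152289 and 16943362 per library in Ctrl (median 16617146), 15934907 and 17135770 in stress (median 16872396), 16465961 and 31280267 in vehicle (median 16889139) and 29426183 and 69533214 in CORT (median 59689732). A count stood for about 75 covered bases (median 74.9 to 75.0 by library) and not for a sequenced fragment, so that 1 read pair makes several counts. Levels of 1 gene between libraries are given as CPM, which are counts per library total scaled with the TMM factors of edgeR, and levels of different genes as the deposited TPM, which divide by transcript length. A gene was called when the adjusted p-value of edgeR's quasi-likelihood test, fitted on all genes of the comparison, was below 0.05, and the 2-fold rule of the study is given beside it. All adjusted p-values below are from that test with Benjamini-Hochberg adjustment. The study describes the samples of a group as biologically independent, the labels do not tie each library to its mice, and the p-values measure the spread between these samples. If the joined stress numbers are pools, that spread is not the one between single mice. The fit treated joined and single numbers alike.

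The sort was checked against 6 markers of ISCs (*Ascl2*, *Axin2*, *Lgr5*, *Olfm4*, *Slc12a2* and *Smoc2*). Their median was between 434 CPM in CORT 2 and 607 CPM in Ctrl 1, *Olfm4* was the highest of them in every library, and none was at 0. Single markers did change. *Ascl2*, a transcription factor of ISCs, was at 148, 138 and 147 CPM in Ctrl and at 53.8, 69.0 and 61.8 CPM in stress, and fell 2.34-fold (adjusted p = 3.36e-04, called in 6 of 6 fits without 1 library). It was at 149, 171 and 162 CPM in vehicle and at 59.3, 75.8 and 108 CPM in CORT, 2.00-fold lower (adjusted p = 0.0114, and 0.0588 without CORT 4). *Lgr5* (1.35-fold, adjusted p = 0.0277) and *Smoc2* (1.24-fold, adjusted p = 0.0474) were also lower in CORT, both calls being lost in each of the 6 fits without 1 library (adjusted p = 0.053 to 0.0723 and 0.0725 to 0.161). The other 3 ISC markers did not pass the test in stress or in CORT. Of 6 blood cell markers, 3 to 5 were at 0 in each library, and of 6 stromal and endothelial markers 4 to 6. Markers of enterocytes, the absorptive cells that arise from ISCs, differed between groups. Their 6 genes summed to 420, 439 and 410 CPM in Ctrl 1, 2 and 3 but to 1166, 525 and 2118 CPM in stress 1+2, 3 and 4+5+6. They summed to 597, 414 and 477 CPM in vehicle 3, 5 and 6 and to 501, 472 and 432 CPM in CORT 2, 4 and 5. None was at 0, and per transcript length the most abundant of the 6 by group mean was *Fabp2* in Ctrl and CORT (199 and 189 TPM), *Apoa1* in stress (389 TPM) and *Anpep* in vehicle (199 TPM). The median of the 6 was 24.3, 23.6 and 27.3 CPM in Ctrl and 171, 64.3 and 331 CPM in stress, so that all stress libraries were above all Ctrl libraries by either measure. In bulk RNA, a change in the share of a cell type cannot be told apart from a change of RNA per cell.

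Promoter sequences show which of the clock's own motifs lie next to the genes that rose and fell. The RefSeq windows (GRCm38.p6, the release of mm10) reach from 250 bases before to 50 bases after a start site, and 9 members had 13 of them (*Per2* had none). Both strands were searched for the E-box CACGTG, the E'-box CACGTT, the D-box TTANGTAA that DBP, TEF, HLF and NFIL3 bind, and TNGGTCA as a loose form of the RORE core. In this loose form the second base was free, and no flanking bases were required. A glucocorticoid receptor site of AGAACA, any 3 bases and TGTTCT was searched as well. The 13 windows held 14 matches at 12 distinct sites, since 2 sites of *Arntl* lie in both of its windows, and within a window 0 matches overlapped another. The 250 bases before the start are printed below for 5 members, 5′ to 3′ on the strand of the gene, with the matches in capitals. *Arntl* and *Per1* are examples of the genes that rose in stress and in CORT, and *Nr1d1* of those that fell in both. *Per3* and *Cry1* are examples of the genes called as lower in CORT only. All 5 printed stretches hold a match, whereas *Npas2*, which rose in both, and *Nr1d2*, which fell in both, had none. The stretches are chr7:113207261-113207510 (plus strand) for *Arntl*, chr11:69098699-69098948 (plus) for *Per1*, chr4:151044666-151044915 (minus) for *Per3*, chr10:85185055-85185304 (minus) for *Cry1* and chr11:98775378-98775627 (minus) for *Nr1d1*.
Arntl: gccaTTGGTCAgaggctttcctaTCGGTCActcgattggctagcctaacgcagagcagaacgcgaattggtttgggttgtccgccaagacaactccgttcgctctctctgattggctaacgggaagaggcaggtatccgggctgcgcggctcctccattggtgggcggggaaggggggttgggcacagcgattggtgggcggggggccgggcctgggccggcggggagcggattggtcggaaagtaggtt
Per1: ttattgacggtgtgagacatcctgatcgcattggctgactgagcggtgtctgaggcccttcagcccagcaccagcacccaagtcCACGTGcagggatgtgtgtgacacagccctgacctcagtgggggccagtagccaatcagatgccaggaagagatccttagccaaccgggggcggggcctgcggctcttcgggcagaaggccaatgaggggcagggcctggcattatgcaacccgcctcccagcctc
Per3: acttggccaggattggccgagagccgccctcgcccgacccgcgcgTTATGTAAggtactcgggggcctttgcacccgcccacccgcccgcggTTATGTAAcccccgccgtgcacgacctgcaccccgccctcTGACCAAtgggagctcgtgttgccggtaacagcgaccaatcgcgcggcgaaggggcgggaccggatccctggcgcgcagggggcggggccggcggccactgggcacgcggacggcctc
Cry1: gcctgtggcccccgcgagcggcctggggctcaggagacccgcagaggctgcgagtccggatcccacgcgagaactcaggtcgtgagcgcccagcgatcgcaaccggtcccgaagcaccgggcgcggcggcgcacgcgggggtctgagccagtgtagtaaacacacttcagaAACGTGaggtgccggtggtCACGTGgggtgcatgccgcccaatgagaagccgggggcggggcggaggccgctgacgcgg
Nr1d1: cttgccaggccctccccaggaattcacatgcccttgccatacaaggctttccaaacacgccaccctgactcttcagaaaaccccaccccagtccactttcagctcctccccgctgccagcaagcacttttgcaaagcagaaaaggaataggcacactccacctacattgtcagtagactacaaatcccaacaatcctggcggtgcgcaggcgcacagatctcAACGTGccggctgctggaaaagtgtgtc

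In the *Arntl* stretch the capitals are matches to the loose RORE core, TTGGTCA at 246 and TCGGTCA at 227 bases before the start. Another match, TAGGTCA, begins at base 31 after the start and thus outside the printed stretch. This window is 1 of 2 overlapping ones for *Arntl*, and the other holds the same 2 upstream matches. *Per1* held an E-box 166 bases before 1 of its 2 starts and no match at the other. *Per3* held D-boxes at 205 and 158 bases and a match to the loose RORE core (TGACCAA) at 118 bases before its start. *Cry1* held an E'-box at 79 and an E-box at 60 bases before the start, and *Nr1d1* an E'-box at 28 bases. *Cry2* held an E'-box at 166 bases and a match to the loose RORE core (TGACCAA) at 133 bases. No match lay in the windows of *Clock*, *Npas2* and *Nr1d2*, which says only that these letters are not in these windows. Of 32851 promoter windows of the same length, 7.15% held the E-box, 4.68% the E'-box, 2.32% the D-box, 11.0% the RORE core and 0.009% (3 windows) the glucocorticoid receptor site, which no member held. A match is a description of the sequence and not a binding site.

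The first comparison asks how 1 restraint changed the clock transcripts of ISCs. In stress vs. Ctrl, 3 members rose (*Arntl*, *Npas2* and *Per1*) and 3 fell (*Per2*, *Nr1d1* and *Nr1d2*), while *Clock*, *Per3*, *Cry1* and *Cry2* did not pass the test. Of all 13722 genes tested, 1.30% rose and 0.590% fell. By the 2-fold rule, 4 members were called (*Arntl*, *Npas2*, *Per2* and *Nr1d1*), against 0.751% of all genes in either direction. The libraries of stress and Ctrl did not overlap for 8 of the 10 members, against 20.4% of all genes. The median log2 fold change of the members was -0.46 and that of all genes -0.003, and the median absolute log2 fold change was 0.93 for the members and 0.17 for all genes. Leaving out 1 library at a time, *Arntl* and *Per1* were called in 6 of 6 fits and the other 4 called genes in 2 or 3 of 6.

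The second comparison asks the same of 1 injection of corticosterone. In CORT vs. vehicle, the same 3 genes by name rose (*Arntl*, *Npas2* and *Per1*) and 6 fell (*Per2*, *Per3*, *Cry1*, *Cry2*, *Nr1d1* and *Nr1d2*), which leaves *Clock*. Of all 14656 genes tested, 3.64% rose and 4.50% fell. By the 2-fold rule, 6 members were called (*Arntl*, *Npas2*, *Per1*, *Per2*, *Per3* and *Cry1*), against 1.87% of all genes. The groups did not overlap for 10 of 10 members, against 28.7% of all genes. The median log2 fold change was -0.76 for the members and 0.01 for all genes, and the median absolute log2 fold change was 1.11 for the members and 0.20 for all genes. Leaving out 1 library at a time, *Arntl*, *Npas2*, *Per1*, *Per2*, *Per3* and *Nr1d2* were called in 6 of 6 fits and *Cry1*, *Cry2* and *Nr1d1* in 2 of 6. CORT was sequenced more deeply than vehicle by its median, so that counting error was smaller there.

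**Figure D1:**
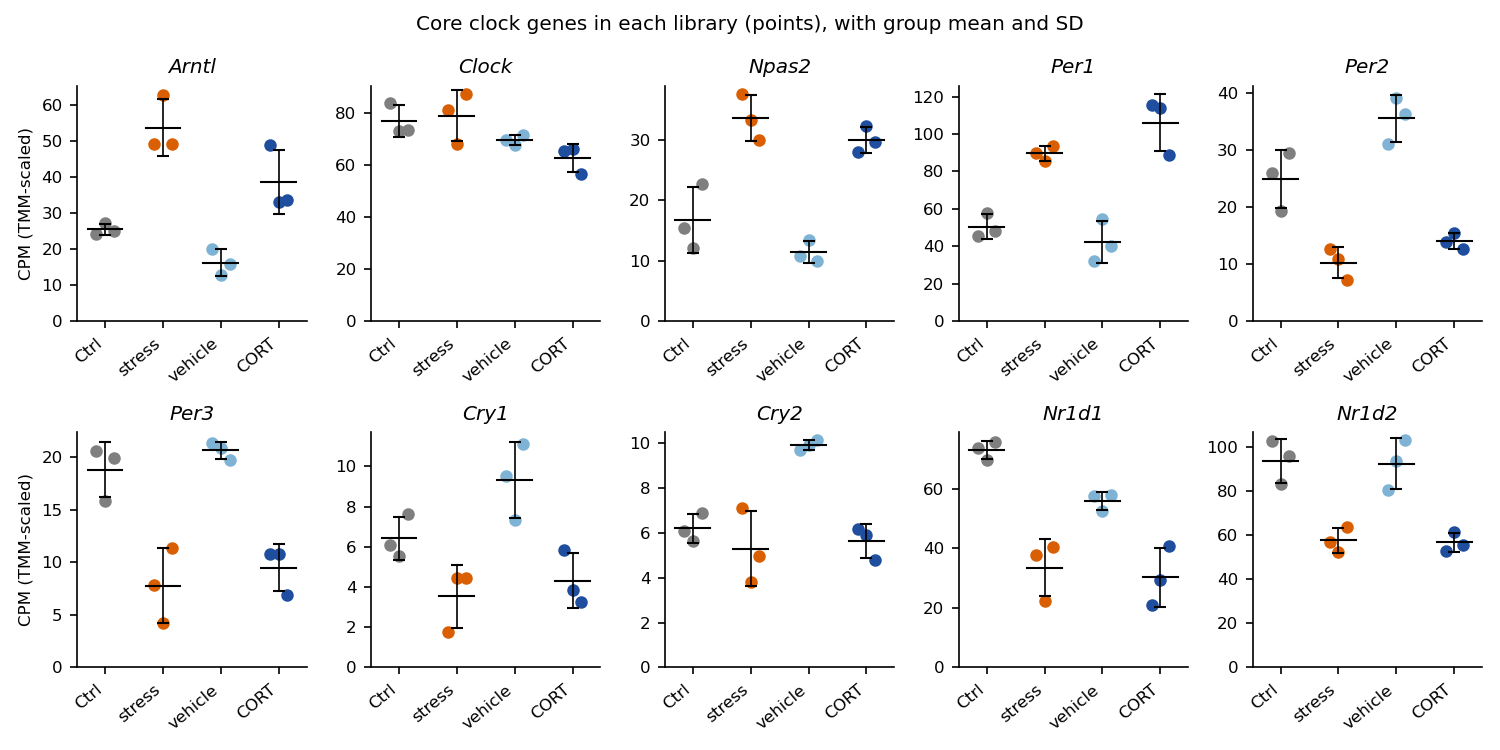
Level of each of the 10 core clock genes in CPM, scaled with TMM factors (y axis from 0), in the 3 libraries of each group (points), with the group mean (long line) and SD (bars). *Arntl*, *Npas2* and *Per1* sit higher in stress than in Ctrl and in CORT than in vehicle in every library, *Clock* stays between 56.5 and 87.4 CPM in all 12, and *Per2*, *Per3*, *Cry1*, *Nr1d1* and *Nr1d2* sit lower in every treated library than in any of its controls.

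Of the activators, *Arntl* encodes the partner that every active clock complex contains. Its level was 24.2, 27.2 and 25.1 CPM in Ctrl 1, 2 and 3 and 49.3, 62.8 and 49.2 CPM in stress 1+2, 3 and 4+5+6. It was 20.1, 12.7 and 15.7 CPM in vehicle 3, 5 and 6 and 48.8, 33.1 and 33.7 CPM in CORT 2, 4 and 5. All stress libraries were above all Ctrl libraries, and all CORT libraries above all vehicle libraries, with stress 3 and CORT 2 highest in their groups. *Arntl* rose 2.11-fold in stress (log2 fold change 1.08, SE 0.128, adjusted p = 0.00331) and 2.38-fold in CORT (log2 fold change 1.25, SE 0.203, adjusted p = 0.0063). Without 1 library the adjusted p was between 0.0016 and 0.0333 in stress and between 0.00716 and 0.0342 in CORT.

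*Npas2* encodes a relative of CLOCK that can take its place beside ARNTL. Its level was 15.4, 12.0 and 22.7 CPM in Ctrl 1, 2 and 3 and 37.5, 33.4 and 29.9 CPM in stress 1+2, 3 and 4+5+6. It was 10.7, 13.4 and 9.98 CPM in vehicle 3, 5 and 6 and 28.0, 32.3 and 29.6 CPM in CORT 2, 4 and 5. The groups did not overlap in either comparison, although Ctrl 3 stood nearer to stress than the other 2 Ctrl libraries did. *Npas2* rose 2.01-fold in stress (log2 fold change 1.01, SE 0.215, adjusted p = 0.0475) and 2.64-fold in CORT (log2 fold change 1.40, SE 0.147, adjusted p = 8.27e-04). The call in stress was lost without Ctrl 1 (adjusted p = 0.207), Ctrl 2 (0.146), stress 1+2 (0.183) or stress 4+5+6 (0.0805), whereas in CORT the adjusted p did not exceed 0.0072 without any 1 library.

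*Clock* itself, the histone acetyltransferase partner of ARNTL, was among the steadier members. Its level was 83.9, 73.2 and 73.4 CPM in Ctrl 1, 2 and 3 and 81.2, 68.2 and 87.4 CPM in stress 1+2, 3 and 4+5+6. It was 69.4, 67.8 and 71.5 CPM in vehicle 3, 5 and 6 and 65.2, 66.1 and 56.5 CPM in CORT 2, 4 and 5. Stress and Ctrl overlapped, and the CORT libraries lay just below the vehicle libraries. The log2 fold change was 0.04 in stress (95% interval -0.21 to 0.29, adjusted p = 0.910) and -0.15 in CORT (95% interval -0.34 to 0.03, adjusted p = 0.300), so that both intervals lie within a 2-fold change. The direction in stress was not stable, since the change was -0.04 in the lowest and 0.14 in the highest fit without 1 library.

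Of the *Per* genes, whose proteins carry the negative limb of the clock and set its phase, *Per1* rose and *Per2* fell. *Per1*, also known as a direct target of the glucocorticoid receptor, was at 45.4, 57.9 and 47.9 CPM in Ctrl 1, 2 and 3 and at 90.1, 85.5 and 93.5 CPM in stress 1+2, 3 and 4+5+6. It was at 32.1, 54.4 and 39.9 CPM in vehicle 3, 5 and 6 and at 116, 114 and 88.7 CPM in CORT 2, 4 and 5. The groups stood well apart in both comparisons. *Per1* rose 1.78-fold in stress (log2 fold change 0.83, SE 0.108, adjusted p = 0.00493) and 2.52-fold in CORT (log2 fold change 1.33, SE 0.178, adjusted p = 0.00255). It was called in all 6 fits without 1 library in both comparisons, with adjusted p-values of at most 0.0438 in stress and 0.0187 in CORT.

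*Per2* was at 25.9, 19.4 and 29.5 CPM in Ctrl 1, 2 and 3 and at 12.7, 10.9 and 7.22 CPM in stress 1+2, 3 and 4+5+6. It was at 31.2, 39.2 and 36.3 CPM in vehicle 3, 5 and 6 and at 13.8, 15.5 and 12.7 CPM in CORT 2, 4 and 5. Every treated library was below every control library of its comparison, the reverse of *Per1*. On the log2 scale *Per2* changed by -1.28 in stress (SE 0.234, adjusted p = 0.0255) and -1.35 in CORT (SE 0.133, adjusted p = 6.54e-04), and was thus 2.43-fold and 2.54-fold lower. In stress the call was lost without Ctrl 1 (adjusted p = 0.134), Ctrl 2 (0.05), Ctrl 3 (0.13) or stress 4+5+6 (0.0613), and in CORT it held in 6 of 6 such fits.

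*Per3*, the third *Per* gene and the least needed for rhythm, was at 20.6, 15.8 and 19.9 CPM in Ctrl 1, 2 and 3 and at 7.84, 4.18 and 11.3 CPM in stress 1+2, 3 and 4+5+6. It was at 21.3, 20.9 and 19.7 CPM in vehicle 3, 5 and 6 and at 10.8, 10.8 and 6.88 CPM in CORT 2, 4 and 5. The groups did not overlap, but the stress libraries spread over more than a 2-fold range. Its log2 fold change was -1.27 in stress, which did not pass the test (SE 0.308, adjusted p = 0.075), and -1.12 in CORT, which did (SE 0.188, adjusted p = 0.00768). In stress the gene was called without stress 3 (adjusted p = 0.0315) or stress 4+5+6 (0.037), with DESeq2 (0.00187) and in 1 fit over all 12 libraries (0.0256).

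The *Cry* genes, whose proteins bind ARNTL and CLOCK and repress them, were the members with the fewest counts. *Cry1* was at 6.08, 5.56 and 7.62 CPM in Ctrl 1, 2 and 3 and at 1.74, 4.43 and 4.44 CPM in stress 1+2, 3 and 4+5+6. It was at 9.51, 7.33 and 11.1 CPM in vehicle 3, 5 and 6 and at 5.84, 3.88 and 3.23 CPM in CORT 2, 4 and 5. Treated and control libraries did not overlap, and stress 1+2 stood below the other stress libraries. *Cry1* had log2 fold changes of -0.86 in stress (SE 0.377, adjusted p = 0.317) and -1.11 in CORT (SE 0.265, adjusted p = 0.0335), of which the second passed the test. The call in CORT was lost without vehicle 3 (adjusted p = 0.0719), vehicle 6 (0.107), CORT 4 (0.131) or CORT 5 (0.107). It was kept in 5 of 9 alternative settings (log2 fold change -1.145 to -0.77, adjusted p up to 0.102).

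*Cry2* was at 6.08, 5.62 and 6.89 CPM in Ctrl 1, 2 and 3 and at 7.09, 3.82 and 4.96 CPM in stress 1+2, 3 and 4+5+6, with stress 1+2 above all Ctrl libraries. It was at 9.69, 9.89 and 10.1 CPM in vehicle 3, 5 and 6 and at 6.19, 5.91 and 4.78 CPM in CORT 2, 4 and 5, which did not overlap. The log2 fold change was -0.23 in stress (95% interval -0.89 to 0.43, adjusted p = 0.792), an interval that reaches from a near 2-fold decrease to a small increase. In CORT it was -0.82 (SE 0.176, adjusted p = 0.0226), and this call was lost without vehicle 5 (adjusted p = 0.0566), vehicle 6 (0.0622), CORT 4 (0.0768) or CORT 5 (0.0837). The vehicle libraries were the highest of the 4 groups for *Cry2*, whereas Ctrl and CORT lay close to each other.

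The repressors of the linked loop fell in both comparisons. *Nr1d1*, which encodes the heme-binding nuclear receptor REV-ERB alpha, was at 73.7, 69.7 and 75.8 CPM in Ctrl 1, 2 and 3 and at 37.6, 22.5 and 40.4 CPM in stress 1+2, 3 and 4+5+6. It was at 57.5, 52.5 and 58.1 CPM in vehicle 3, 5 and 6 and at 20.9, 29.3 and 40.7 CPM in CORT 2, 4 and 5. All treated libraries were below their controls, with stress 3 and CORT 2 lowest, the libraries in which *Arntl* was highest. The log2 fold change was -1.12 in stress (SE 0.184, adjusted p = 0.0176) and -0.90 in CORT (SE 0.201, adjusted p = 0.0261). The call was lost without Ctrl 1, 2 or 3 or stress 1+2 (adjusted p = 0.0525 to 0.0953) and without vehicle 3, 5 or 6 or CORT 4 (adjusted p = 0.0629 to 0.103).

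*Nr1d2* encodes the related REV-ERB beta. It was at 103, 83.0 and 95.7 CPM in Ctrl 1, 2 and 3 and at 57.0, 52.3 and 63.7 CPM in stress 1+2, 3 and 4+5+6. It was at 80.3, 93.5 and 103 CPM in vehicle 3, 5 and 6 and at 52.9, 61.6 and 55.7 CPM in CORT 2, 4 and 5. No treated library reached any control library. The log2 fold change was -0.70 in stress (SE 0.110, adjusted p = 0.0148) and -0.71 in CORT (SE 0.105, adjusted p = 0.00425). The call in stress was lost without Ctrl 1 (adjusted p = 0.0948), Ctrl 3 (0.0827) or stress 1+2 (0.0803), and that in CORT was kept in 6 of 6 fits without 1 library.

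Some members share sequence with other genes, and no source states that strand was used in counting. *Nr1d1* (chr11:98767932-98775333, minus strand, mm10) shares 263 exonic bases with *Thra*, a thyroid hormone receptor gene on the opposite strand that was at 167 CPM on average against 48.2 CPM for *Nr1d1*. The log2 fold change of *Thra* was 0.10 in stress (adjusted p = 0.676) and 0.0002 in CORT (adjusted p = 0.999). *Cry2* (chr2:92403646-92434043, minus strand) shares 295 exonic bases with D930015M05Rik, which was at 0.067 CPM. *Per3* (chr4:151003652-151044665, minus strand) lies within *Camta1* on the same strand with 0 shared exonic bases. *Clock* and *Npas2* contain small genes with 0 shared exonic bases, and *Arntl* (chr7:113207465-113314122, plus strand), *Per1*, *Per2*, *Cry1* and *Nr1d2* overlap no gene of the table.

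Whether stress and CORT acted differently on a member was tested as an interaction over all 12 libraries, stress minus Ctrl against CORT minus vehicle. Of the 10 members, 0 passed in either direction, against 0.194% of all genes higher and 0.194% lower. The smallest adjusted p was that of *Per1*, whose log2 fold change in stress was lower than in CORT by 0.50 (95% interval 0.01 to 0.99 lower, adjusted p = 0.391). For *Cry2* the difference was 0.58 (95% interval -0.10 to 1.27, adjusted p = 0.500). For *Nr1d2* it was 0.004 (95% interval -0.34 to 0.35, adjusted p = 0.994). A difference between the 2 exposures was thus not shown for any member, and the intervals of most members leave room for one.

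**Figure D2:**
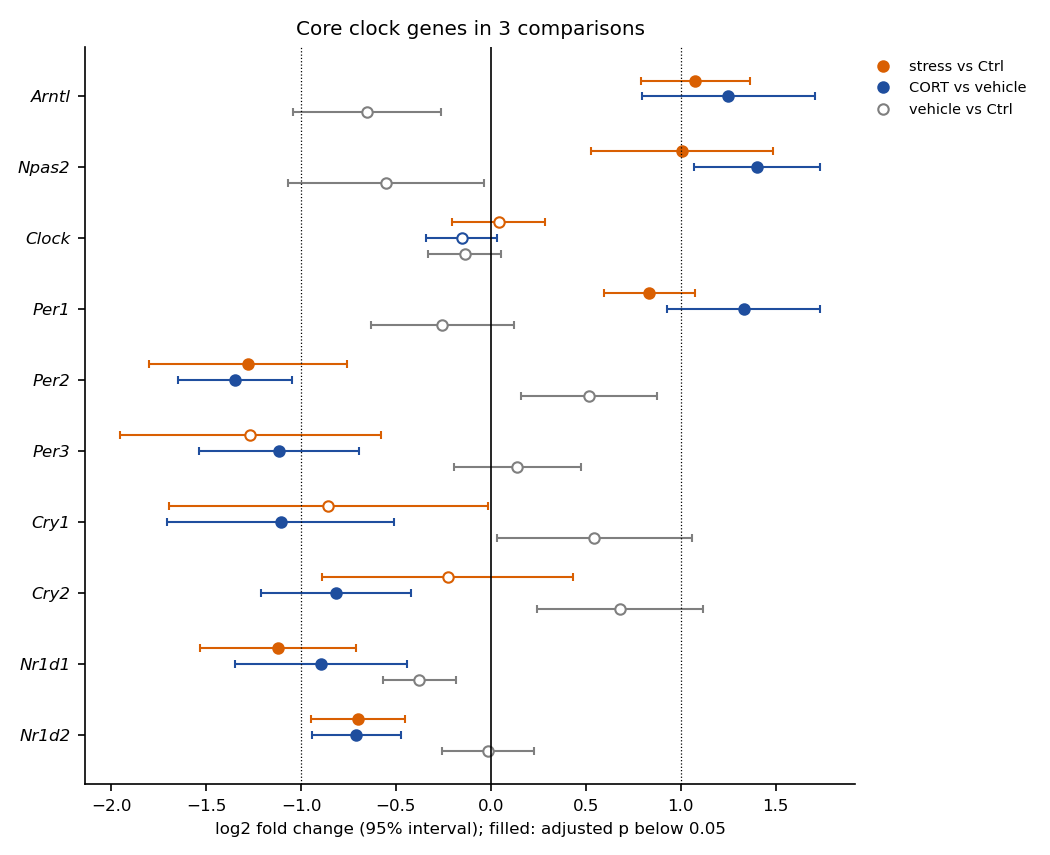
Log2 fold change (x axis) of each core clock gene (rows) with its 95% interval in stress vs. Ctrl (orange), CORT vs. vehicle (blue) and vehicle vs. Ctrl (grey). Filled points have an adjusted p below 0.05 (edgeR) and dotted lines mark a 2-fold change. *Arntl* is at 1.08 and 1.25 and *Per2* at -1.28 and -1.35 in the exposures, and no vehicle vs. Ctrl point is filled.

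The 2 control groups were compared with each other, since neither met the stressor or the hormone. Of the 10 members, 0 rose and 0 fell in vehicle vs. Ctrl, against 0.447% and 0.352% of all 13642 genes tested. Still, 5 members did not overlap between the groups, against 16.3% of all genes, and the median absolute log2 fold change was 0.45 for the members and 0.14 for all genes. *Arntl* had a log2 fold change of -0.65 (SE 0.177, adjusted p = 0.146), *Nr1d1* of -0.38 (SE 0.0876, adjusted p = 0.0881), *Per2* of 0.52 (SE 0.164, adjusted p = 0.219) and *Cry2* of 0.68 (SE 0.20, adjusted p = 0.183). That of *Npas2* was -0.55 (adjusted p = 0.402) and that of *Cry1* 0.54 (adjusted p = 0.414). The sign was opposite to that of the CORT change for *Arntl*, *Npas2*, *Per1*, *Per2*, *Per3*, *Cry1* and *Cry2*, and the same for *Clock*, *Nr1d1* and *Nr1d2*. Mean *Arntl* was 25.5 CPM in Ctrl, 16.2 CPM in vehicle and 38.5 CPM in CORT. DESeq2 called 2 of the members as lower in vehicle, *Arntl* (adjusted p = 0.0292) and *Nr1d1* (0.0252), and *Arntl* was also called without vehicle 3 (adjusted p = 0.0414). This comparison shares its Ctrl libraries with the stress comparison and its vehicle libraries with the CORT comparison, so the values are not independent of the other 2. Injection, handling and hour of collection cannot be told apart in it.

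Set side by side per transcript length, the clock genes changed their order. In Ctrl the highest members were *Nr1d1* at 49.9 ± 2.87 TPM and *Nr1d2* at 38.4 ± 4.47 (SD, n = 3), which did not overlap. *Per1* (21.3 ± 1.85), *Clock* (17.2 ± 4.34) and *Arntl* (16.0 ± 0.808) followed, of which neighbours overlapped. Below them came *Npas2* (9.28 ± 3.17), *Per2* (7.83 ± 1.72) and *Per3* (5.88 ± 0.994), again overlapping between neighbours, then *Cry1* (3.90 ± 0.709) and *Cry2* (2.85 ± 0.348), which were apart. In stress the order was led by *Per1* (36.6 ± 3.17 TPM) and *Arntl* (33.8 ± 3.49), which overlapped with each other and stood above *Nr1d2* (24.0 ± 3.64). There *Nr1d2*, *Nr1d1* (23.6 ± 7.61), *Npas2* (20.9 ± 3.63) and *Clock* (16.2 ± 3.17) overlapped between neighbours, and *Per2*, *Cry2*, *Per3* and *Cry1* followed at 3.37 to 2.13 TPM.

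The order also differed between vehicle and CORT. In vehicle *Nr1d1* (39.3 ± 2.60 TPM) and *Nr1d2* (38.0 ± 2.62) led and overlapped, and *Per1* (17.4 ± 4.98) and *Clock* (14.3 ± 0.370) came next. *Per2* (11.3 ± 1.32) followed below *Clock* and overlapped with *Arntl* (10.4 ± 2.56), which is lower in the order than in Ctrl. In CORT *Per1* stood first at 40.6 ± 5.54 TPM, apart from *Arntl* (23.1 ± 4.81), which overlapped with *Nr1d2* (22.3 ± 2.39). *Per2* (4.29 ± 0.448) and *Per3* (2.79 ± 0.674) were apart there, and *Cry1* (2.48 ± 0.740) was lowest.

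Ratios within a library do not depend on its depth. The ratio of *Arntl* to *Nr1d1* in TPM was 0.304, 0.360 and 0.304 in Ctrl 1, 2 and 3, and 1.15, 2.55 and 1.12 in stress 1+2, 3 and 4+5+6. It was 0.314, 0.225 and 0.247 in vehicle 3, 5 and 6, and 2.14, 1.03 and 0.766 in CORT 2, 4 and 5. The activator was thus below its repressor in all 6 control libraries and above it in 5 of 6 treated ones, CORT 5 being the exception. The ratio of *Per1* to *Per2* was between 1.35 and 3.85 in the control libraries and between 8.36 and 16.8 in the treated ones. The ratio of *Npas2* to *Clock* was 0.378, 0.468 and 0.836 in Ctrl and 1.53, 1.42 and 0.990 in stress. In vehicle it was 0.784, 0.523 and 0.409, and in CORT 1.43, 1.30 and 1.47, so that treated and control libraries did not overlap. These genes had been seen to change before the ratios were taken, and a ratio shows unequal change only.

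**Figure D3:**
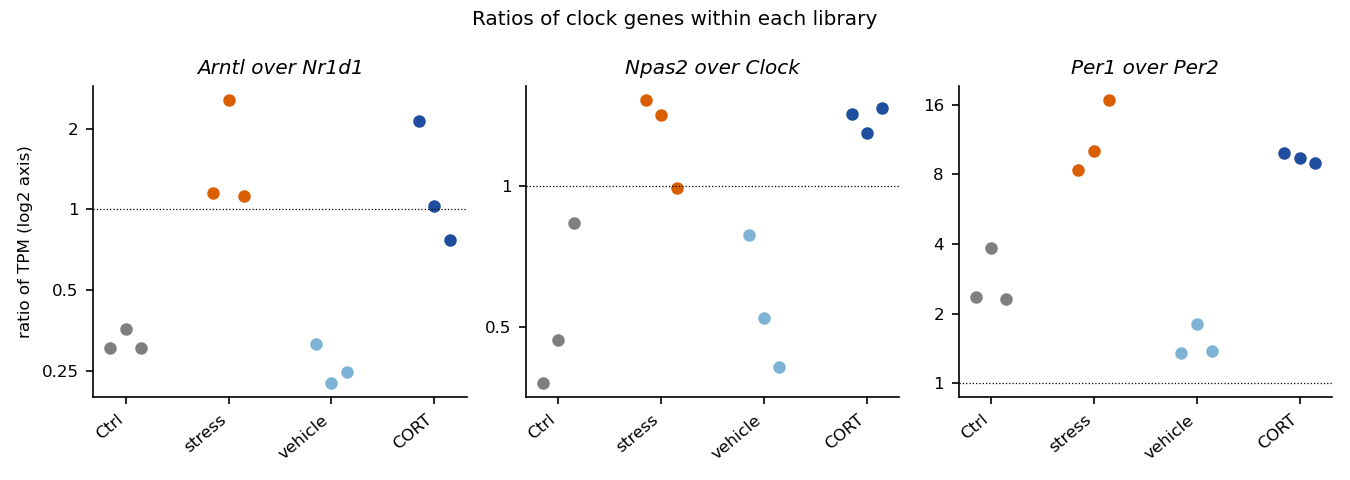
Ratio of the TPM of 2 clock genes within each library (y axis, log2 scale) in the 4 groups, with 1 point per library and a dotted line at a ratio of 1. *Arntl* over *Nr1d1* lies at or below 0.360 in the 6 control libraries and at or above 0.766 in the 6 treated ones, and *Per1* over *Per2* at or below 3.85 and at or above 8.36.

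Over the 12 libraries the members fell into sets by their correlation. *Arntl*, *Npas2* and *Per1* correlated with each other at Pearson's r of 0.77 to 0.87 (log2 of CPM + 1, 3 pairs), and the 6 genes *Per2*, *Per3*, *Cry1*, *Cry2*, *Nr1d1* and *Nr1d2* at 0.47 to 0.89 (15 pairs). Between the sets all 18 pairs were negative, from -0.92 for *Arntl* and *Per2* to -0.65. The libraries form 4 groups of 3, so these values mostly restate the differences between groups, and after each group's mean was taken off, the median r was -0.34 among *Arntl*, *Npas2* and *Per1*, 0.19 among the 6 genes and 0.07 between the sets. The genes most like *Arntl* of 14400 were *Ccng2* (r 0.95), a cyclin of cells leaving the cycle, *Mier1* (0.94) and *Kif18a* (0.92), a mitotic kinesin. Those most like *Per1* were *Ppargc1a* (0.97), a coactivator of mitochondrial and fasting genes, *Fam43a* (0.97) and *Herpud1* (0.97), which acts in the degradation of proteins of the endoplasmic reticulum. Those most like *Nr1d1* were *Rbbp8nl* (0.95), *Mid1ip1* (0.94), a regulator of fatty acid synthesis, and *Pdgfa* (0.94), a growth factor. All of these points share 12 libraries and their depth.

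Outside the core loop, 9 factors of the second loop and of clock output were described, of which 7 passed the filter on low counts. *Rorb* was above 0 only in CORT 4 (0.356 CPM), and *Bhlhe41* had 0 counts in every library, which allows up to 3 read pairs, or 0.173 to 0.753 CPM by library (counting error only). In both comparisons 1 of the 7 rose (*Nfil3*) and 2 fell (*Dbp* and *Tef*), against 1.30% of all genes higher and 0.590% lower in stress and 3.64% and 4.50% in CORT. *Dbp* and *Tef* encode activators known to bind D-boxes, and are themselves driven through E-boxes. *Nfil3* encodes the repressor that competes with them for the same motif. The median absolute log2 fold change of the 7 was 1.53 in stress and 0.79 in CORT, against 0.17 and 0.20 for all genes.

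*Dbp* was at 13.4, 13.5 and 9.21 CPM in Ctrl 1, 2 and 3 and at 1.06, 2.06 and 1.33 CPM in stress 1+2, 3 and 4+5+6. It was at 10.5, 13.4 and 25.1 CPM in vehicle 3, 5 and 6 and at 0.897, 0.931 and 0.757 CPM in CORT 2, 4 and 5. Its treated and control libraries lay far apart, and its log2 fold change of -3.01 in stress (SE 0.327, adjusted p = 0.00206) and -4.24 in CORT (SE 0.351, adjusted p = 2.7e-04) exceeded that of any core member in size. *Dbp* shares 539 exonic bases with *Sphk2* on the opposite strand, which was at 87.2 CPM on average and changed by -0.54 on the log2 scale in stress (adjusted p = 0.0332) and -0.84 in CORT (adjusted p = 3.09e-04), so that reads of the 2 genes may be mixed.

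*Tef* was at 57.6, 45.2 and 61.4 CPM in Ctrl 1, 2 and 3 and at 12.3, 6.00 and 13.9 CPM in stress 1+2, 3 and 4+5+6. It was at 79.3, 81.5 and 93.0 CPM in vehicle 3, 5 and 6 and at 15.9, 19.1 and 16.9 CPM in CORT 2, 4 and 5. It stood apart in both comparisons and was lowest in stress 3, with log2 fold changes of -2.35 in stress (SE 0.264, adjusted p = 0.00248) and -2.30 in CORT (SE 0.104, adjusted p = 1.24e-05). Between the control groups *Tef* was higher in vehicle (log2 fold change 0.63, SE 0.119, adjusted p = 0.0374), a call kept in 1 of 6 fits without 1 library, namely the one without vehicle 3 (adjusted p = 0.0416 there, and up to 0.156 without Ctrl 1). *Nfil3* was at 10.3, 5.80 and 5.67 CPM in Ctrl and at 19.3, 20.5 and 23.1 CPM in stress, and at 5.47, 5.99 and 6.38 CPM in vehicle and at 26.6, 19.1 and 20.9 CPM in CORT. It rose 2.89-fold in stress (log2 fold change 1.53, SE 0.244, adjusted p = 0.0157) and 3.71-fold in CORT (log2 fold change 1.89, SE 0.173, adjusted p = 4.4e-04). The call in stress was lost without Ctrl 2 (adjusted p = 0.074), Ctrl 3 (0.0827), stress 1+2 (0.0506) or stress 4+5+6 (0.0536).

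The other 4 factors did not pass the test in any of these comparisons. *Bhlhe40*, a repressor at E-boxes, was between 38.6 and 56.8 CPM in the 12 libraries. *Rora*, an activator at RORE motifs, was at 0.175, 0.239 and 0.610 CPM in Ctrl and at 1.80, 1.09 and 1.38 CPM in stress (adjusted p = 0.162), which are levels of few reads. *Hlf* and *Ciart* were at most 1.62 and 2.85 CPM in any library.

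**Figure D4:**
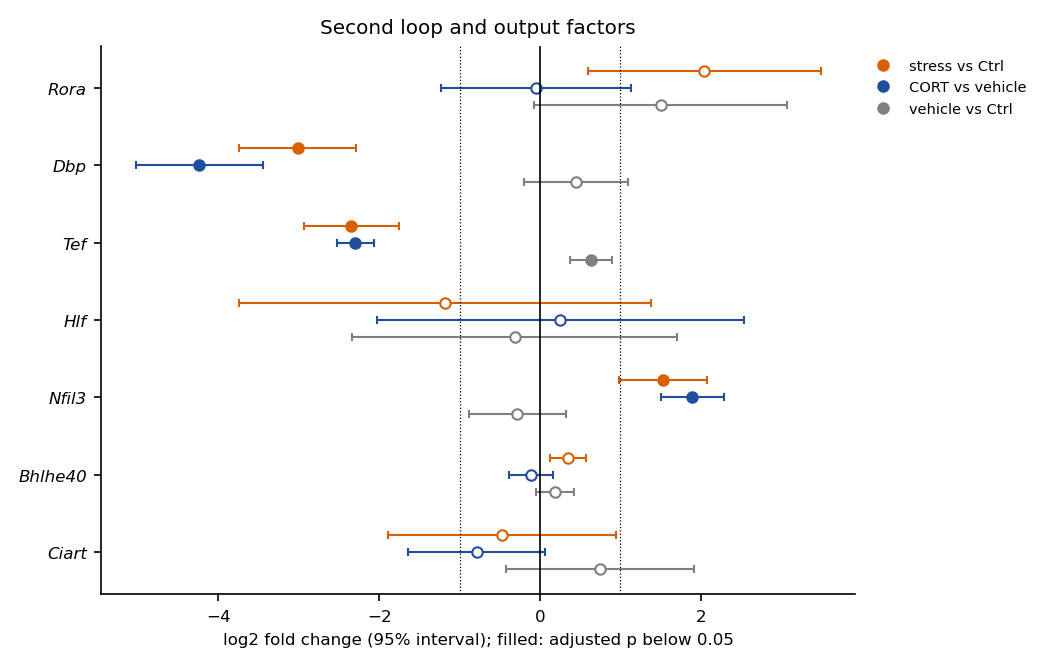
Log2 fold change (x axis) with its 95% interval of the 7 second loop and output factors that passed the filter (rows) in stress vs. Ctrl (orange), CORT vs. vehicle (blue) and vehicle vs. Ctrl (grey). Filled points have an adjusted p below 0.05 (edgeR) and dotted lines mark a 2-fold change. *Dbp* and *Tef* lie far to the left and *Nfil3* to the right in both exposures, and the intervals of *Rora* and *Hlf*, which had few counts, are the widest.

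Among 30 regulators of the clock proteins (kinases, ubiquitin ligase parts and cofactors), all of which were tested, 0 rose and 0 fell in stress, against 1.30% and 0.590% of all genes. In CORT 2 of the 30 rose and 0 fell, against 3.64% and 4.50% of all genes. The median absolute log2 fold change of the 30 was 0.10 in stress and 0.11 in CORT, against 0.17 and 0.20 for all genes. *Usp2*, a deubiquitinase of clock proteins, was at 41.0, 42.7 and 46.9 CPM in vehicle and at 77.8, 72.3 and 55.1 CPM in CORT (log2 fold change 0.65, SE 0.126, adjusted p = 0.0142), a call lost without vehicle 5 (adjusted p = 0.0554) or CORT 4 (0.0681). It was at 25.6, 27.4 and 28.8 CPM in Ctrl, below vehicle (log2 fold change 0.68, SE 0.113, adjusted p = 0.0206), and this call was lost without Ctrl 1, 2 or 3 or vehicle 6 (adjusted p = 0.0664 to 0.139). *Sirt1*, a deacetylase, was at 29.0, 26.8 and 26.4 CPM in vehicle and at 32.6, 38.4 and 38.9 CPM in CORT (log2 fold change 0.42, SE 0.109, adjusted p = 0.0478), a call that was kept in 1 of 6 fits without 1 library (adjusted p of 0.0412 without CORT 2, and 0.0579 to 0.186 without the others).

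Known glucocorticoid response genes were read beside the clock genes. Their list was written with earlier results of these data known, so it is no independent check of exposure. Of 9 such genes, 7 rose in stress and 7 in CORT, namely *Fkbp5*, *Tsc22d3*, *Sgk1*, *Zbtb16*, *Klf9*, *Ddit4* and *Errfi1* in both, against 1.30% and 3.64% of all genes that rose. *Fkbp5*, which encodes a chaperone of the glucocorticoid receptor, was at 64.0 ± 5.15 CPM in Ctrl and 210 ± 36.5 CPM in stress, and at 171 ± 28.6 CPM in vehicle against 917 ± 47.6 CPM in CORT (SD, n = 3). It was higher in vehicle than in Ctrl (log2 fold change 1.42, adjusted p = 4e-04), whereas *Sgk1* (-1.25, adjusted p = 0.0206) and *Dusp1* (-3.60, adjusted p = 0.0196) were lower there, both calls being lost without Ctrl 1 (adjusted p = 0.0858 and 0.0719). *Sgk1* was also lost without Ctrl 2 (0.0897) or vehicle 6 (0.0766), and *Dusp1* without Ctrl 3 (0.085). *Nr3c1*, the receptor itself, fell in CORT (log2 fold change -0.37, adjusted p = 0.012), which was lost without CORT 4 (0.0521), and *Errfi1* in stress was lost without Ctrl 2 (0.0624) or stress 1+2 (0.0566). The vehicle libraries were thus not at the Ctrl level for these 3 genes, and the clock genes in CORT are measured against that baseline.

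Among the markers of differentiated cells, those of enterocytes were the ones of which most were called in stress. Of all genes tested in stress, 1.30% rose and 0.590% fell. Of the 6 enterocyte markers 4 rose in stress (*Alpi*, *Sis*, *Apoa1* and *Apoa4*), by log2 fold changes of 2.66 to 3.60, and these calls were kept in 1 to 3 of 6 fits without 1 library. Of 6 goblet cell markers 1 rose, *Clca1* (3.01-fold, adjusted p = 0.0392), and the 6 summed to 530, 666 and 521 CPM in Ctrl 1, 2 and 3 and to 885, 501 and 1352 CPM in stress 1+2, 3 and 4+5+6, which overlap. Of 6 Paneth cell markers 1 rose, *Mmp7* (1.82-fold, adjusted p = 0.0285), and the 6 summed to 173, 136 and 158 CPM in Ctrl and to 263, 169 and 248 CPM in stress, which overlap as well. The calls of *Clca1* and *Mmp7* were kept in 1 of 6 fits without 1 library, the one without stress 3 (adjusted p of up to 0.194 and 0.113 in the others). Of 6 enteroendocrine markers and of the 3 tuft cell markers that passed the filter on low counts, 0 were called in stress. The part of these cells in the stress comparison was not tested. In the CORT comparison the enterocyte sums of both groups overlapped, although 1 of the 6 markers rose, *Fabp2* (log2 fold change 0.46, adjusted p = 0.0251), and the sum of 6 Paneth cell markers was 186 to 211 CPM in vehicle and 104 to 116 CPM in CORT. Of these markers 4 fell in CORT (*Mmp7*, *Defa17*, *Defa24* and *Itln1*), whereas 4.50% of all genes fell and 3.64% rose there. *Mmp7* was called in 6 of 6 fits without 1 library and the other 3 in 1 or 2 of 6. *Mmp7* was also 4.11-fold higher in vehicle than in Ctrl (adjusted p = 1.83e-04). Of the 3 tuft cell markers tested 1 fell in CORT, *Pou2f3* (log2 fold change -1.14, adjusted p = 0.0317). *Pecam1*, which encodes the CD31 that the sort was to leave out, was at 0.951, 0.291 and 0.389 CPM in vehicle and at 1.46, 2.35 and 3.24 CPM in CORT (log2 fold change 2.12, adjusted p = 0.0427), and was the 1 stromal and endothelial marker that passed the filter. The calls of *Fabp2*, *Pou2f3* and *Pecam1* were kept in 2, 1 and 1 of 6 fits without 1 library (adjusted p of up to 0.103, 0.118 and 0.159). Of the enteroendocrine and goblet cell markers 0 were called in CORT, and the part of other cells in the CORT comparison was not tested either.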

How the data were processed

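RNA was measured in 12 libraries. Pairs of 150-bp reads were aligned to mm10 by the authors, and the submitters' processing notes list HISAT2 2.2.1 and StringTie 2.2.1, whereas the methods name featureCounts. Estimated counts were deposited for each gene, as whole numbers that are not scaled to depth. The authors also deposited FPKM, TPM and mean coverage (a signal per base) for every gene in a library, of which coverage served to learn what 1 count stands for. No column was left without a sample (0 columns), and 0 rows named no gene. Where a symbol occurred more than once (126 symbols), the gene with the highest mean was taken.

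Counts were tested with edgeR 4.0.16 in R 4.3.3 (TMM, filterByExpr, quasi-likelihood F-test, Benjamini-Hochberg adjustment over all genes tested) on the 6 libraries of a comparison, or on 12 for the interaction. The biological coefficient of variation was 16.8 to 19.2%. The SE is the absolute log2 fold change over the square root of F. The scripts were tested on simulated data. Alternatives were DESeq2 1.42.0, its size factors, counts thinned to the lowest library total, other filters on low counts, 1 fit over all libraries, limma 3.58.1 on log2(FPKM + 1) or log2(FPKM + 0.1), and each library left out in turn. As a check for a library deposited more than once, the chi-square of the counts per gene was 9.2 to 94.1 between libraries of a group, a value that several counts per read pair raise. The members, gene lists and rules for named genes (all members, second loop and glucocorticoid genes, called regulators, and the 3 genes most like *Arntl*, *Per1* and *Nr1d1*) were chosen with earlier results of these data known. An item of the lists is not reported here. The motifs were chosen after the files had been seen. The bound given for 0 counts covers counting error only, and the SEs, intervals and p-values rest on the spread between libraries.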

Additional observations from a re-analysis of the deposited data

How the results depend on the processing

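Of the core clock genes called, none changed direction in any alternative run. In stress, the count of members that rose and fell (3 and 3) became 2 and 0 with no filter on low counts (1 past 2-fold, the call of *Npas2* being lost as well), 1 and 0 with limma on log2(FPKM + 1) (0 past 2-fold), and 0 and 0 with log2(FPKM + 0.1) or with log2(FPKM + 1) and no filter (0 past 2-fold). In CORT (3, 6 and 6 past 2-fold), log2(FPKM + 1) gave 3 past 2-fold, log2(FPKM + 0.1) gave 0, 3 and 1, and log2(FPKM + 1) with no filter gave 0 higher and 1 past 2-fold. Counts thinned to the lowest library total gave 5 lower and 5 past 2-fold in CORT, as did 1 fit over all 12 libraries. The call of *Cry1* was lost in both. In vehicle vs. Ctrl DESeq2 called 2 members as lower. Without 1 library, 2 to 3 members rose, 0 to 4 fell and 1 to 3 passed 2-fold in stress. In CORT 3 to 3 rose, 3 to 6 fell and 5 to 6 passed 2-fold, in vehicle vs. Ctrl 0 to 1 fell and 0 to 0 rose, and in the interaction 0 to 0 passed in either direction.

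Over all genes, 260 were called in stress, 616 with DESeq2, 46 with no filter, 36, 42 and 29 with the FPKM fits (in the order above), 510 in 1 fit over 12 libraries and 56 to 849 without 1 library, the 849 without stress 3 and at most 114 in the other 5 fits. In CORT 1192 were called, 1870 with DESeq2, 704, 408 and 662 with the FPKM fits and 503 to 1003 without 1 library. In vehicle vs. Ctrl 109 were called, 329 with DESeq2, 12, 4 and 0 with the FPKM fits and 20 to 169 without 1 library. The interaction called 56, 396 with DESeq2, 3, 13 and 15 with the FPKM fits and 12 to 241 without 1 library, the 241 again without stress 3 and at most 69 in the others. The cause of these shifts was not tested. Among the other clock and response genes called in stress, *Tef* was lost in 2 of 9 alternatives (adjusted p up to 0.135), *Klf9* in 3 of 9 (up to 0.118) and *Nfil3* and *Errfi1* in 4 of 9 (up to 0.169 and 0.181), all with FPKM fits or with no filter. In CORT, of 9 alternatives *Errfi1* was lost in 2, *Nr3c1* in 1, *Usp2* in 3 and *Sirt1* in 5 (adjusted p up to 0.1, 0.0785, 0.136 and 0.128). In vehicle vs. Ctrl *Fkbp5* was lost in 2 of 9, *Usp2* in 3, *Sgk1* in 4 and *Tef* in 5 (up to 0.155, 0.29, 0.354 and 0.423) and *Dusp1* in 3 of 8 (0.296). Of the cell type markers, *Alpi*, *Sis*, *Apoa1*, *Apoa4* and *Mmp7* were called in 5 of 9 in stress (up to 0.345) and *Clca1* in 4 (0.38). In CORT *Lgr5*, *Smoc2*, *Defa24* and *Itln1* were called in 6 of 9 (up to 0.0998). *Ascl2* and *Pou2f3* were called there in 7 of 9, *Fabp2* in 5 (up to 0.387) and *Pecam1* in 3 of 8 (up to 0.181). *Mmp7* in vehicle vs. Ctrl was called in 7 of 9 (up to 0.133). Reversed values were those of *Clock* in stress (-0.082, -0.090 and -0.082 with the FPKM fits, and -0.037 to 0.137 without 1 library), *Nr1d2* in the interaction (-0.015 with no filter) and *Npas2* in the interaction (0.067, 0.056 and 0.067 with the FPKM fits). Without 1 library, *Nr1d2* reversed in vehicle vs. Ctrl (-0.102 to 0.072), as did *Arntl* (-0.356 to 0.030), *Nr1d1* (-0.441 to 0.033), *Nr1d2* (-0.087 to 0.095), *Per2* (-0.121 to 0.261) and *Per3* (-0.532 to 0.141) in the interaction. No paired analysis was run, since the groups compared share fewer than 2 library labels as written. The joined stress label 1+2 holds the numbers of Ctrl 1 and Ctrl 2 but matches no single Ctrl library. With 3 libraries a group and unequal depth, *Cry1*, at a few CPM, had the largest SE of the members in both exposures (0.377 and 0.265).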
